A study of Homo sapiens with 6 samples.

Results

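The transcripts described here come from 7 genes of the translation machinery: EIF4G1, EIF4G2, EIF4G3, EIF3A, EEF2, EEF1A1 and PABPC1. Binding sites were taken from 6 deposited PAR-CLIP lists, and a site was assigned to a gene where its midpoint fell within the gene's hg19 span on the gene's strand. By this rule 1276 of 464799 sites belonged to the 7 genes (the members). PAR-CLIP crosslinks a protein to RNA in living cells through 4-thiouridine, a photoreactive nucleoside, and maps where RNA that comes down with the protein had been bound.

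The proteins were FMR1, the fragile X protein, and its paralogs FXR1 and FXR2. FMR1 was present as isoform 1 and isoform 7 (iso1 and iso7), each as wild type (wt) and as I304N, in which an isoleucine of a KH domain, one of the protein's RNA-contacting folds, is replaced by asparagine. All 6 forms carried a FLAG-HA tag and were expressed from stable transgenes in FlpIn T-Rex cells of HEK293, an established human embryonic kidney line. Doxycycline at 1 µg/ml switched on the transgene during a 16 h labelling with 4-thiouridine at 100 µM. Irradiation at 365 nm (0.15 J per square cm) followed, and RNase T1, an enzyme that cuts RNA, was applied for 15 min at 22 °C. These settings were the same for all 6 forms. The labels name no removal of the cells' own FMR1, FXR1 or FXR2, and no untagged or uncrosslinked control was analysed here. There was 1 library per form, hence no replicate error and no p-value for any value.

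Translation initiation loads the small ribosomal subunit onto an mRNA whose cap is bound by EIF4E and whose poly(A) tail is bound by PABPC1. EIF4G1 and EIF4G3 are the scaffolds that join cap, tail and ribosome, EIF4G2 is a related factor without the cap-binding part of the scaffold, and EIF3A is the largest subunit of the initiation complex that docks on the ribosome. During elongation EEF1A1 brings aminoacyl-tRNA to the ribosome and EEF2 moves the ribosome along the mRNA. FMR1 is an RNA-binding protein found on polyribosomes and known as a regulator of translation. The mRNAs of EEF1A1, EEF2 and PABPC1 belong to the class that starts with a terminal oligopyrimidine tract, whose translation is under mTOR control.

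The lists held 9017 sites (FXR1) to 132219 sites (I304N iso1), and site numbers are therefore given also per 100000 sites of a list, with exact 95% Clopper-Pearson intervals in parentheses. The lists give positions and no read numbers, and every site counts once whatever its reads. They also hold no RNA levels: more binding and more RNA of a gene cannot be told apart, and HEK293 identity could not be checked. Intervals cover counting error only, and neighbouring sites of a transcript are not independent, so they may be too narrow.

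FXR1 and FXR2 gave the largest share of their sites to these genes, though for FXR1 this depended on the scaling. The members together had 49 sites in FXR1 and 194 in FXR2, which is 543 (402 to 718) and 562 (486 to 647) per 100000 sites. The FMR1 libraries had 286 sites in wt iso1, 257 in wt iso7, 275 in I304N iso1 and 215 in I304N iso7. Scaled, these were 235 (208 to 263), 327 (289 to 370), 208 (184 to 234) and 243 (211 to 277) per 100000. Both paralog values lay above all 4 FMR1 values without overlap of intervals. In covered nucleotides FXR1 had 546 and FXR2 643 per 100000 covered nucleotides of the list, against 523 in wt iso7 and 369 to 419 in the other FMR1 libraries. With median-of-ratios scaling over 50 kb windows FXR1 (335 per 100000) lay below wt iso7 (412) and I304N iso7 (375), and FXR2 (437) stayed highest. EIF4G1 supplied 26.4% of all member sites and PABPC1 2.12%.

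**Figure D1:**
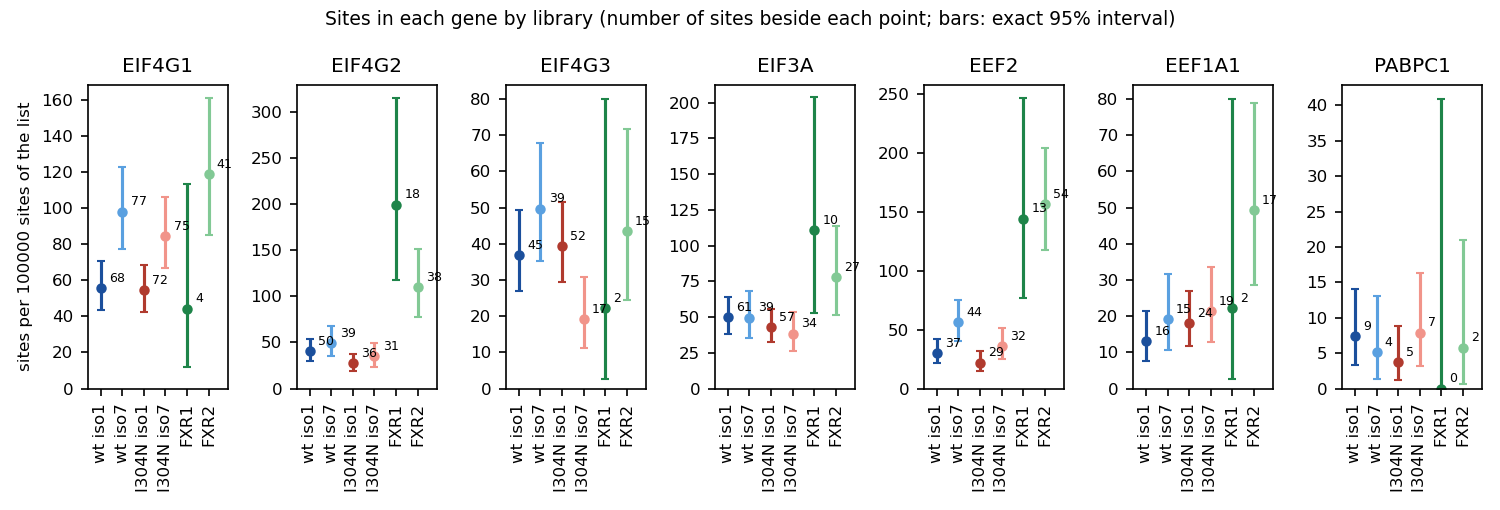
Sites per 100000 sites of the list (y axis, from 0, own scale in each panel) in each of the 7 genes for the 6 libraries. Points carry the number of sites and bars are exact 95% intervals; EIF4G2 and EEF2 are highest in FXR1 and FXR2, and PABPC1 is low in every library.

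EIF4G1, the main cap-to-ribosome scaffold, lies on chromosome 3 from 184032283 to 184053146 (plus strand). It had 68 sites in wt iso1, 77 in wt iso7, 72 in I304N iso1, 75 in I304N iso7, 4 in FXR1 and 41 in FXR2. Per 100000 sites of the list that is 55.8, 98.1, 54.5, 84.6, 44.4 and 119 in the same order. Both iso7 libraries were above both iso1 libraries, also in covered nucleotides and with median-of-ratios scaling, but FXR2 was then below both iso7 libraries. FXR1 was lowest but with an interval (12.1 to 114) that reached over the FMR1 values. Windows of the same length as the gene were laid end to end along both strands, and in wt iso7 15 of 20339 windows with any site had as many sites as EIF4G1 or more. In FXR1 that was 555 of 4221. EIF4G1 was thus among the densest stretches of the FMR1 and FXR2 lists and not of the FXR1 list.

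EIF4G2 (chromosome 11, 10818593 to 10830582, minus strand) went the other way in FXR1. Its 18 FXR1 sites were 200 per 100000 (118 to 315), and its 38 FXR2 sites 110 (77.9 to 151). The FMR1 libraries held 50 sites in wt iso1, 39 in wt iso7, 36 in I304N iso1 and 31 in I304N iso7, or 41.0, 49.7, 27.2 and 35.0 per 100000. Both paralogs lay above all 4 FMR1 libraries, also in covered nucleotides and with median-of-ratios scaling. Within FMR1 both I304N libraries lay below both wild-type libraries with overlapping intervals, an order lost with median-of-ratios scaling (35.2 in I304N iso1 against 34.1 in wt iso1). In FXR1, 17 of 4507 windows of this length with any site matched or exceeded the gene.

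EIF4G3, the second full-length scaffold, has by far the longest span, 370.4 kb (chromosome 1, 21132976 to 21503377, minus strand). It had 45 sites in wt iso1, 39 in wt iso7, 52 in I304N iso1, 17 in I304N iso7, 2 in FXR1 and 15 in FXR2. Per 100000 sites these were 36.9, 49.7, 39.3, 19.2, 22.2 and 43.5. I304N iso7 was lowest, with an interval (11.2 to 30.7) below that of wt iso7 (35.3 to 67.9). With median-of-ratios scaling FXR1 (13.7) was lowest, and I304N iso7 (29.7) was close to wt iso1 (30.7). Per kb of span it was the sparsest gene in 5 libraries, at 0.0405 to 0.140 sites per kb, and in FXR1 it had 0.00540 sites per kb and PABPC1 none. Spans include introns, so this order compares genomic density and not density on the mRNA.

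EIF3A (chromosome 10, 120794541 to 120840334, minus strand) had 61 sites in wt iso1, 39 in wt iso7, 57 in I304N iso1, 34 in I304N iso7, 10 in FXR1 and 27 in FXR2. The scaled values in the FMR1 libraries were 50.0, 49.7, 43.1 and 38.4 per 100000, with overlapping intervals. FXR1 reached 111 (53.2 to 204) and FXR2 78.2 (51.5 to 114). The FXR1 and FXR2 intervals overlapped each other and those of wild-type FMR1.

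EEF2, the ribosomal translocase (chromosome 19, 3976054 to 3985461, minus strand), was the gene with the most sites per kb of span in FXR2, at 5.74 sites per kb. It had 37 sites in wt iso1, 44 in wt iso7, 29 in I304N iso1, 32 in I304N iso7, 13 in FXR1 and 54 in FXR2. Only EEF2 and EEF1A1 had more sites in the FXR2 list than in the wt iso1 list, which is over 3 times as long. Per 100000 sites EEF2 stood at 30.4, 56.1, 21.9, 36.1, 144 and 156, so that both paralogs lay above all 4 FMR1 libraries. They also did so in covered nucleotides and with median-of-ratios scaling. FXR1 was then only a little above wt iso7, at a ratio of 1.04 by nucleotides and 1.26 with that scaling. In FXR2, 8 of 11825 windows of this length with any site had as many sites or more.

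EEF1A1 (chromosome 6, 74225473 to 74230755, minus strand) had 16 sites in wt iso1, 15 in wt iso7, 24 in I304N iso1, 19 in I304N iso7, 2 in FXR1 and 17 in FXR2. The scaled values ran from 13.1 (7.50 to 21.3) in wt iso1 to 49.2 (28.7 to 78.8) in FXR2. Those of the other 4 libraries lay between 18.2 and 22.2 per 100000. Sites continued past the end of its span: 12, 2, 5, 6, 3 and 5 further sites, in the order wt iso1, wt iso7, I304N iso1, I304N iso7, FXR1 and FXR2, had their midpoint within 1 kb downstream. None lay within 1 kb upstream of any of the 7 spans, and downstream of the other 6 genes there were 0 to 5 sites per gene and library.

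PABPC1, which coats the poly(A) tail, had the fewest sites of the 7 genes in each library (chromosome 8, 101715144 to 101734315, minus strand). It had 9 sites in wt iso1, 4 in wt iso7, 5 in I304N iso1, 7 in I304N iso7, none in FXR1 and 2 in FXR2. The scaled values were 7.38, 5.10, 3.78, 7.90, 0 and 5.79 per 100000, with overlapping intervals. The count of 0 in FXR1 allows up to 33.3 per 100000 (3 counts), so a lower level than in FMR1 was not detectable at this depth. Occupied windows of this length had a median of 3 sites in wt iso1 and I304N iso1, 2 in I304N iso7 and 1 in wt iso7 and FXR2, so PABPC1 was low only beside the other members. From 23.4% to 49.0% of windows of this length with any site held as many sites or more in the 5 libraries with a PABPC1 site. EEF1A1 and PABPC1 have near-identical processed copies elsewhere in the genome, and the sources used here do not say how reads matching several places were treated, so their counts are uncertain.

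Across the 6 libraries the levels of EIF4G2 were closest to those of EEF2. Distance was the sum over libraries of absolute differences of log2(sites per 100000 + 1), which was 1.91 for this pair. It compares levels and not only the shape of a profile. EIF3A was nearest to EIF4G2 (2.38), EIF4G1 to EIF3A (4.47), and EIF4G3 and EEF1A1 to each other (4.16). EIF4G3 and EEF1A1 had 2 FXR1 sites each, but their FXR2 over wt iso1 ratios differed, at 1.18 and 3.75. PABPC1 was at least 13.2 from every other member. Its FXR1 count of 0 entered these sums as a level of 0, though up to 33.3 per 100000 could be missed. The size of the PABPC1 distances is therefore uncertain.

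**Figure D2:**
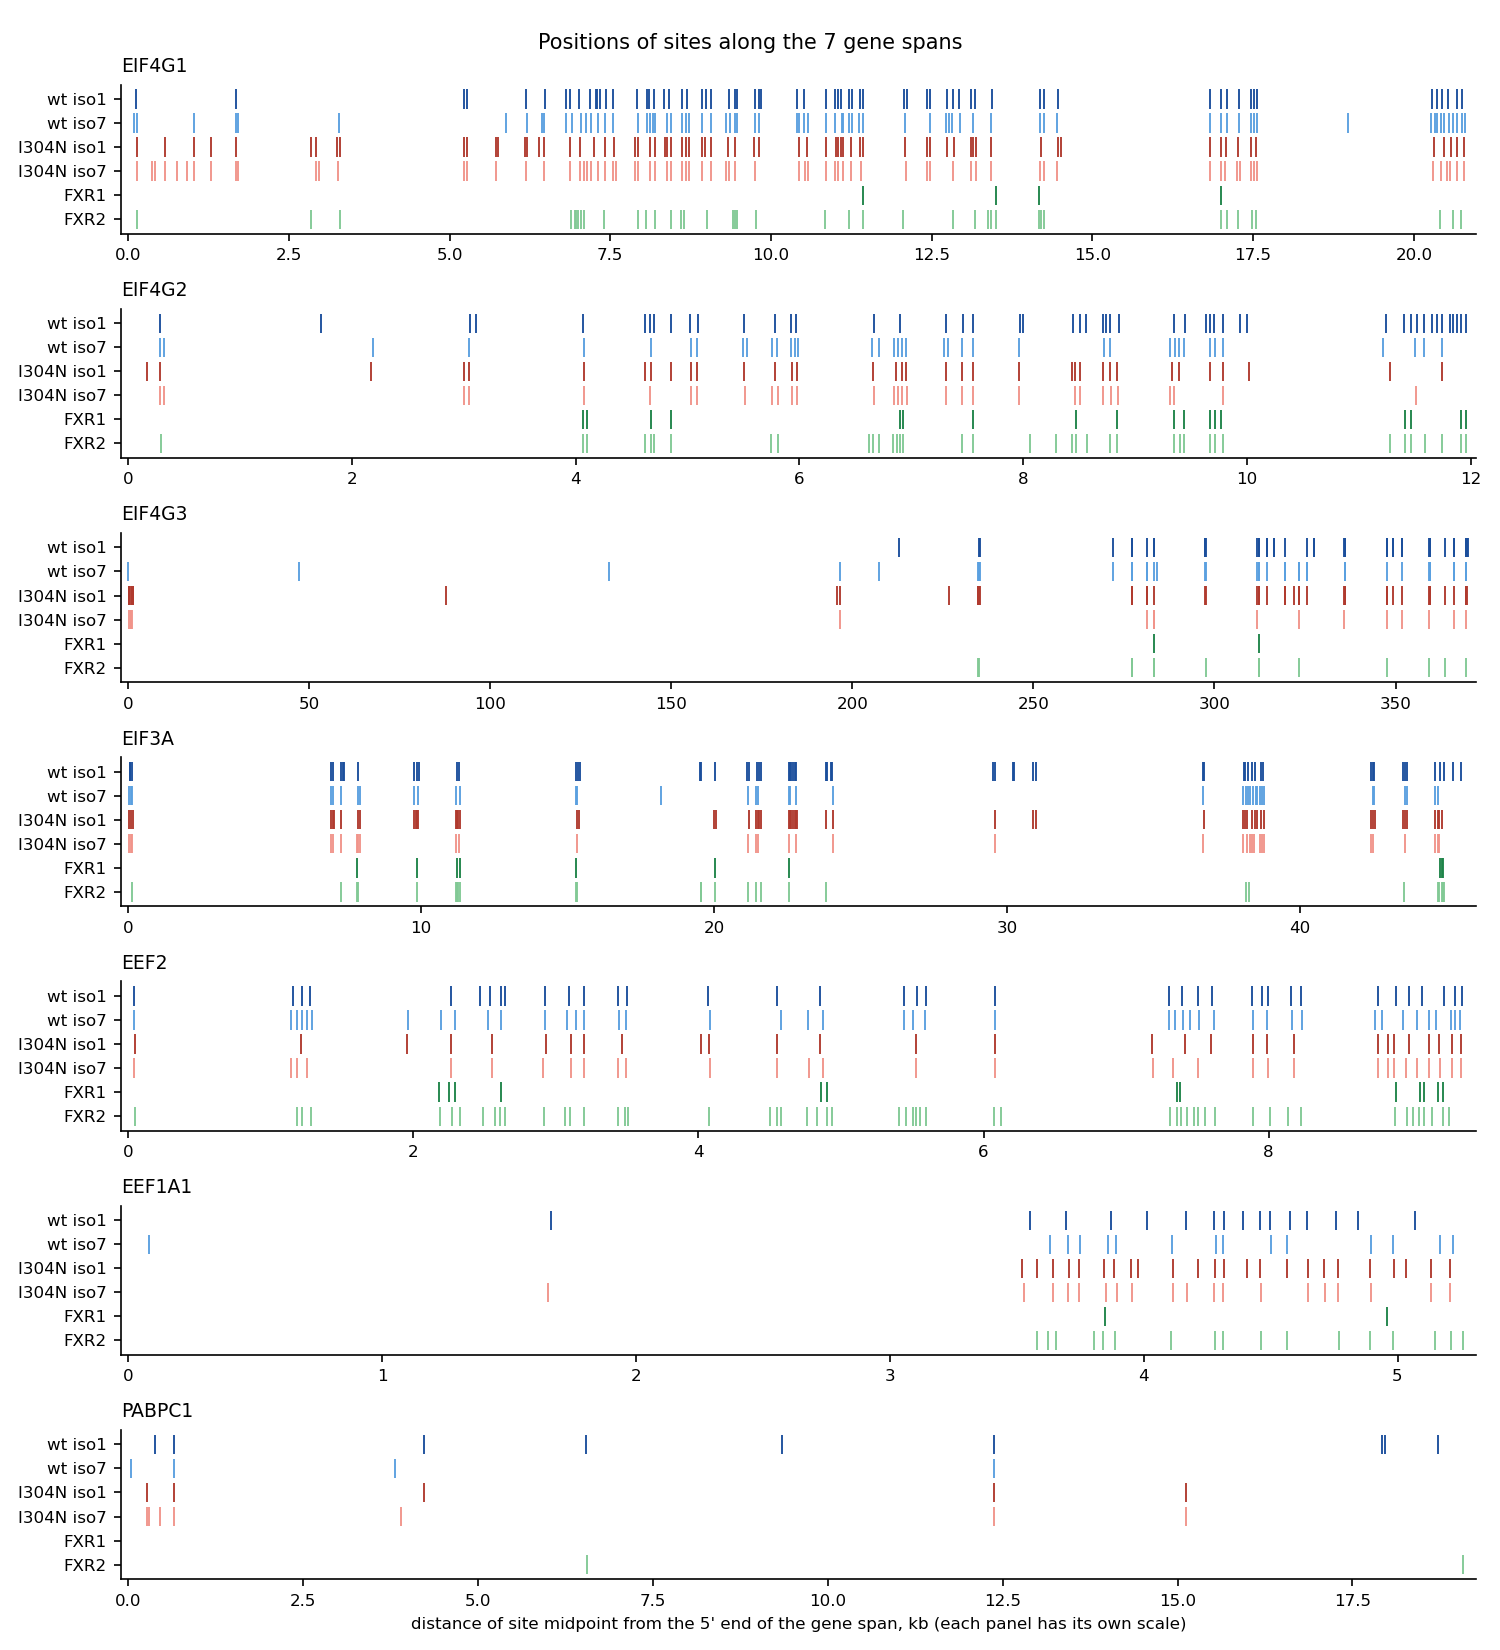
Midpoints of all sites (vertical ticks) along each span, in kb from its 5′ end (x axis, own scale in each panel), with 1 row per library. EEF2 sites run from end to end in the FMR1 and FXR2 libraries, EEF1A1 sites crowd into the last 2 kb, and EIF4G3 sites lie mostly toward the 3′ end.

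Sites were spread differently along the genes. In EEF2 they ran along the whole span, with the first site 0.0420 to 0.0475 kb from its 5′ end in the FMR1 libraries and 0.0445 kb in FXR2. FXR1 had no EEF2 site before 2.18 kb. In EEF1A1, 15 of 16 sites in wt iso1, 14 of 15 in wt iso7, all 24 in I304N iso1, 18 of 19 in I304N iso7, both in FXR1 and all 17 in FXR2 lay within 2 kb of the 3′ end. In EIF4G3 the median site lay at 76.5% to 88.4% of the way from the 5′ to the 3′ end, and in EIF4G1 at 43.4% to 66.3%. Exons, introns and UTRs under these positions were not analysed here, since no hg19 annotation was at hand.

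The 3′ end of EIF4G2 differed between libraries. The last 10% of its span held 13 of 50 sites in wt iso1 (26.0%, 14.6 to 40.3) and 4 of 39 in wt iso7 (10.3%, 2.87 to 24.2). I304N iso1 had 2 of 36 there (5.56%, 0.680 to 18.7) and I304N iso7 1 of 31 (3.23%, 0.0816 to 16.7). FXR1 had 4 of 18 and FXR2 7 of 38. Sites of wt iso1 and both paralogs ran to 0.0275 kb from the 3′ end, whereas the last site of the other 3 FMR1 libraries lay 0.240 to 0.478 kb before it. Within 2 kb of this end the ratio of I304N iso1 to wt iso1, each per site of its list, was 0.198 (0.0364 to 0.708), from 3 and 14 sites. For iso7 it was 0.221 (0.00450 to 2.24), from 1 and 4 sites. This end was singled out after its values were seen.

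**Figure D3:**
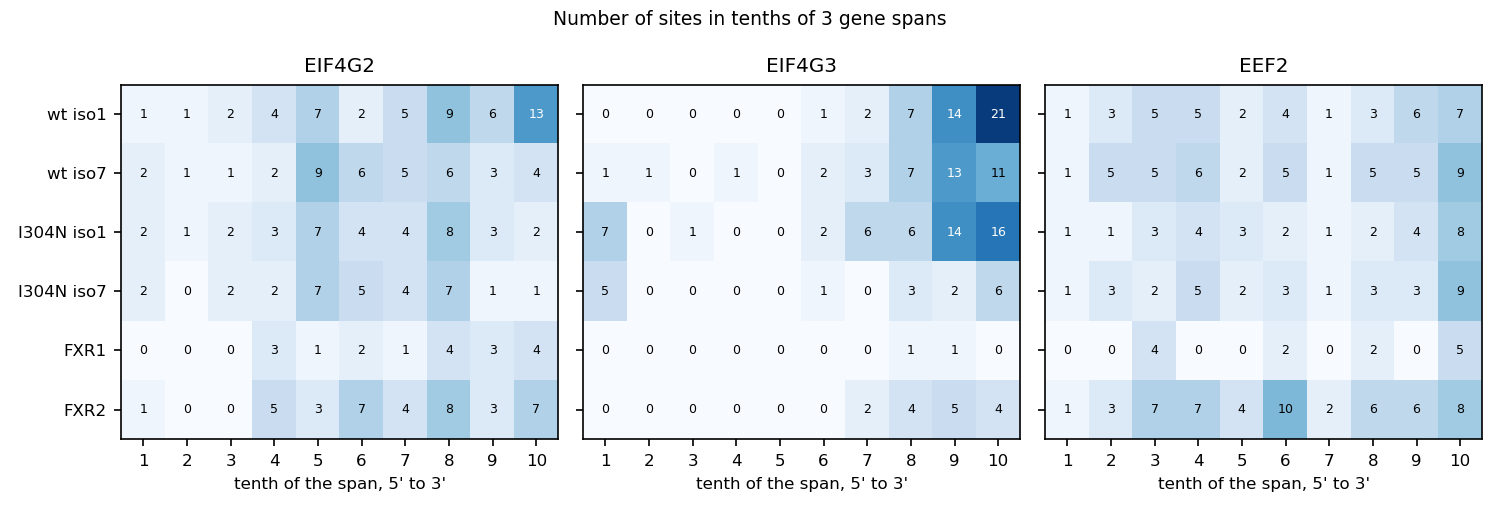
Number of sites in each 10% of the span (x axis, 5′ to 3′) for EIF4G2, EIF4G3 and EEF2 in the 6 libraries (rows), with darker cells for more sites. At the 3′ end of EIF4G2 wt iso1 has 13 sites and the I304N libraries 2 and 1, and at the 5′ end of EIF4G3 the I304N libraries have 7 and 5 sites against 0 and 1 in wild type.

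The FMR1 sites in these genes were wide. The median width over member sites was 38 nt in wt iso1, 29 in wt iso7, 35 in I304N iso1 and 34 in I304N iso7, against 24, 21, 23 and 24 nt over the whole lists. It was 19 nt in FXR1 and 21.5 in FXR2, where the lists had 20 nt. Sites of 60 nt or more made up 26.9% (21.9 to 32.5) of member sites in wt iso1 and 6.35% of its list. They made up 11.7%, 23.3% and 25.1% of member sites in wt iso7, I304N iso1 and I304N iso7, against 1.51%, 4.85% and 4.90% of those lists. In EIF4G3 they made up 2.22%, 2.56%, 1.92% and 0% in wt iso1, wt iso7, I304N iso1 and I304N iso7. PABPC1 had no site of this width, and EEF1A1 had none in wt iso7 and I304N iso1. EEF2 had the widest FMR1 sites, with medians of 68, 39, 89 and 69 nt in wt iso1, wt iso7, I304N iso1 and I304N iso7. In FXR1 and FXR2 its medians were 20 and 23.5 nt. The widest member site was in EEF1A1 in wt iso1, 394 nt on chromosome 6 from 74225491 to 74225884, where wt iso7 had 4 sites, I304N iso1 5, I304N iso7 3, FXR1 1 and FXR2 5. Over the whole of EEF1A1 the sites covered 1583 nt in wt iso1 and 332 nt in wt iso7, where the widest site had 32 nt. How far site numbers in such stretches depend on where the caller split them was not tested.

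EEF2 sites together came to about the length of the EEF2 mRNA. They covered 2717 nt in wt iso1, 2477 in wt iso7, 3001 in I304N iso1, 2829 in I304N iso7, 255 in FXR1 and 1524 in FXR2, and 3185 nt over all libraries. The EEF2 mRNA in GENCODE release 29 is 3164 nt long. The 2 lengths were set side by side without matching positions, since that annotation uses another build. EIF4G1 sites covered 5119 nt over all libraries, next to a longest listed mRNA of 5667 nt. The same lengths were 3269 and 6646 nt for EIF3A, 2758 and 4001 nt for EIF4G2, 2278 and 6196 nt for EIF4G3, 1619 and 4441 nt for EEF1A1, and 417 and 3485 nt for PABPC1. Only in EEF2 and EIF4G1 did the covered length come near that of the mRNA. Sites past the end of a span were left out of these lengths. Within 1 kb downstream EEF1A1 had 2 to 12 such sites per library and EIF3A up to 5, so their covered lengths may be too short.

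Few member sites were marked as lying in repeats. There were 0 in wt iso1, 1 in wt iso7, 2 in I304N iso1 and 5 in I304N iso7, all in EIF4G1, and 0 in FXR1 and FXR2. The whole lists had 3.03% to 6.11% of sites in repeats. On the strand opposite to the genes the spans held 1 site in all, in EIF4G3 in FXR1.

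**Figure D4:**
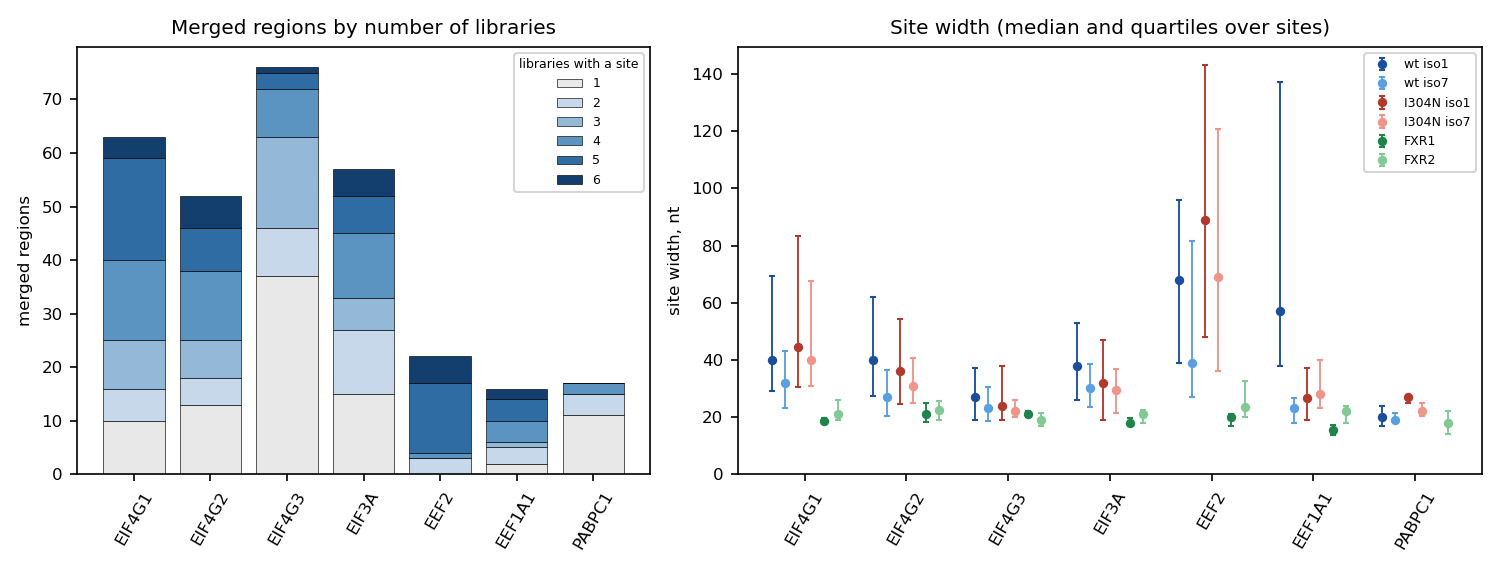
Left, merged regions per gene (y axis) by the number of libraries with a site in the region (shades, 1 to 6). Right, width of sites in nt (points are medians, bars run from the lower to the upper quartile over sites) by gene and library; EEF2 has no region seen in 1 library alone and has the widest FMR1 sites.

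Sites of any library that touched on a strand were joined into merged regions to see which positions the proteins shared. The 7 genes held 303 such regions, of which 113 had a site in all 4 FMR1 libraries, 23 in all 6 libraries and 88 in 1 library alone. The share found in all 4 FMR1 libraries ran from 86.4% in EEF2 (19 of 22 regions) and 58.7% in EIF4G1 (37 of 63) to 11.8% in PABPC1 (2 of 17) and 10.5% in EIF4G3 (8 of 76). Over the whole lists 9.13% of 237434 merged regions had a site in all 4 FMR1 libraries, against 37.3% here, and 55.3% had a site in 1 library alone, against 29.04% here. EEF2 regions had a median length of 108 nt, against 37 nt over all members, and the longest region was in EIF4G1 (591 nt). The part of region length and site density in these shares was not tested. Of the regions in 1 library alone, 41 belonged to wt iso1, 20 to I304N iso1, 14 to wt iso7, 8 to I304N iso7, 5 to FXR2 and 0 to FXR1. Both I304N libraries without either wild-type library were found in 12 regions (3.96%, against 8.31% over the whole lists), and the reverse in 5 (1.65%, against 1.89%), of which 3 were in EIF4G2.

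The regions with sites in most libraries were as follows. In EEF2 the leading region lay at the 3′ end, on chromosome 19 from 3976081 to 3976602 (522 nt), with 6 sites in wt iso1, 7 in wt iso7, 6 in I304N iso1, 7 in I304N iso7, 5 in FXR1 and 8 in FXR2. A second EEF2 region, from 3977821 to 3978172, had 4, 6, 2, 2, 2 and 8 sites in the same order. In EIF4G2 the leading region was chromosome 11 from 10823608 to 10823755, with 1, 4, 3, 4, 2 and 4 sites. In EIF3A it was chromosome 10 from 120828998 to 120829160, with 2, 2, 4, 2, 2 and 4 sites, 34.5 kb from the 3′ end. EIF4G1 was led by chromosome 3 from 184046422 to 184046545, with 2, 2, 1, 2, 1 and 3 sites. EIF4G3 had 1 region in all 6 libraries, chromosome 1 from 21220021 to 21220115, with 2, 1, 1, 2, 1 and 2 sites. EEF1A1 had 2, at chromosome 6 from 74225490 to 74225884 and from 74226694 to 74226968. PABPC1 had none: its best shared regions, on chromosome 8 from 101733644 to 101733673 and from 101721931 to 101721957, had 1 site in each FMR1 library and none in FXR1 or FXR2.

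Paralog sites in these genes nearly always lay on wt iso1 sites, and less often on sites of the iso7 libraries. Of 49 FXR1 sites, 48 (98.0%, 89.1 to 99.9) shared 1 nt or more with a wt iso1 site of the same strand, against 70.0% over the whole FXR1 list. Of 194 FXR2 sites, 180 (92.8%, 88.2 to 96.0) did so, against 64.4% of the FXR2 list. Overlap with wt iso7 was 67.3% for FXR1 and 74.2% for FXR2, against 21.2% and 32.1% of the lists. For FXR1 it was 81.6% with I304N iso1, against 27.4% of the list. Overlap with I304N iso7 was 63.3% for FXR1 and 72.2% for FXR2, against 18.2% and 34.8% of the lists. It differed by gene: 53 of 54 EEF2 sites and 36 of 41 EIF4G1 sites of FXR2 overlapped an I304N iso7 site, but 20 of 38 in EIF4G2 and 4 of 15 in EIF4G3. These shares rise with the number and width of sites of the other library in a gene. Both were high over the FMR1 sites of the members together, though not in every gene. Their part in the difference from the lists was not tested.

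Among the FMR1 libraries, 230 of 286 wt iso1 sites (80.4%, 75.3 to 84.9) overlapped an I304N iso1 site, and 197 of 257 wt iso7 sites (76.7%, 71.0 to 81.7) an I304N iso7 site. The whole lists gave 44.6% and 49.8%. FXR1 and FXR2 overlapped in 47 of 49 FXR1 sites (95.9%, against 74.4% of the list) and 46 of 194 FXR2 sites (23.7%, 17.9 to 30.3, against 19.4% of the list). Both ends were identical in 20 of the 47, whereas 58.9% of the overlapped FXR1 sites of the whole list had identical ends. Of the 20, 12 were in EIF4G2 and 6 in EIF3A, with 1 each in EIF4G1 and EEF2.

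The effect of I304N was examined by comparing each I304N library with the wild-type library of its isoform. For single members 49 ratios of list shares were formed over 7 comparisons, with exact conditional 95% intervals that are not adjusted for their number. Ratios of the paralogs to wt iso7, given further below, come on top of these 49 and are likewise unadjusted. In iso1 no member differed by 2-fold on the scale of log2(sites per 100000 + 1), used for all 2-fold counts below. Over 7869 windows of 50 kb with a mean of at least 2 sites per 100000, 29.9% were at least 2-fold higher and 20.4% at least 2-fold lower. In iso7 EIF4G3 alone was 2-fold lower and none was higher, where 20.1% of windows were lower and 21.4% higher. The EIF4G3 ratio was 0.386 (0.205 to 0.698) in iso7, from 17 and 39 sites, and 1.07 (0.701 to 1.62) in iso1. EIF4G2 stood at 0.664 (0.420 to 1.04) and 0.704 (0.425 to 1.16) in iso1 and iso7, and EEF2 at 0.723 (0.429 to 1.21) and 0.644 (0.395 to 1.04). EEF1A1 was the only member above 1 in both, at 1.38 (0.705 to 2.79) and 1.12 (0.540 to 2.37), and in covered nucleotides its iso1 ratio was 0.440. In each isoform 5 of 7 members lay below 1: EIF4G1, EIF4G2, EIF3A and EEF2 in both, PABPC1 in iso1 and EIF4G3 in iso7. EIF4G1 in iso1 was close to 1, at 0.976. The share of windows below 1 is not given here. On the scale of the 2-fold counts the median ratio over members was 0.864 in iso1 and 0.776 in iso7, beside 1.09 and 1.03 over the windows. The members together gave 0.887 (0.749 to 1.05) in iso1 and 0.741 (0.615 to 0.891) in iso7. With libraries scaled by median-of-ratios over windows these became 1.38 and 0.911, so the iso1 direction depended on the scaling. That scaling multiplied each iso1 ratio by 1.55 and left 1 of 7 members (PABPC1) below 1 in iso1 and 4 of 7 in iso7, with the median over windows at 1.66 and 1.23.

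**Figure D5:**
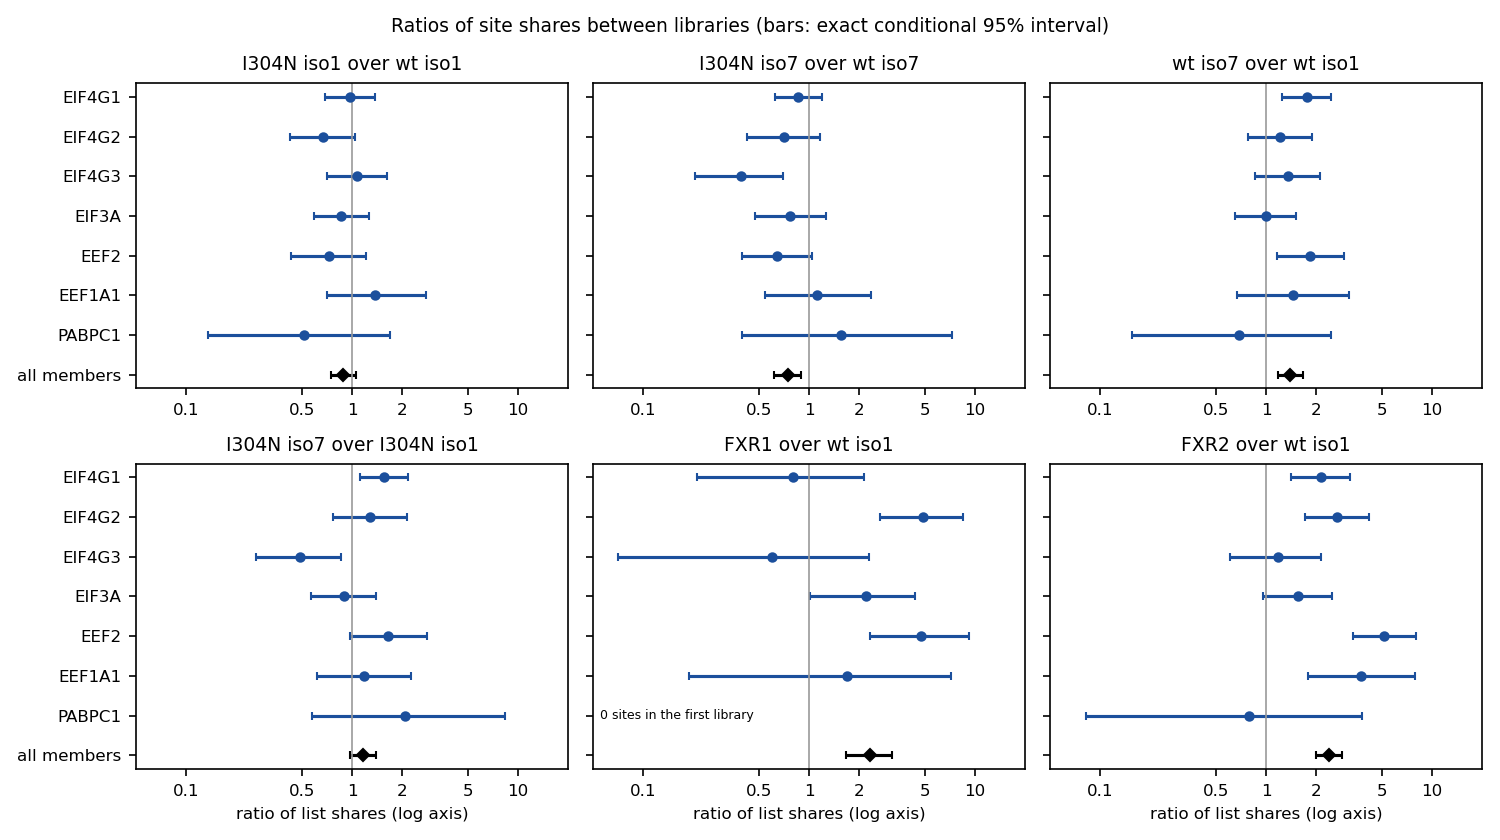
Ratios of list shares (log axis) for each member and for all members together in 6 comparisons, with exact conditional 95% intervals. EIF4G2 and EEF2 lie to the right of 1 in both paralog panels, and the I304N panels have most intervals across 1.

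Isoform 7 was compared with isoform 1 in each form. EIF4G1 had 1.76 times (1.25 to 2.47) its isoform 1 share in the wild type and 1.55 times (1.11 to 2.18) with I304N. EEF2 had 1.85 (1.17 to 2.94) and 1.65 (0.964 to 2.82). EIF3A was at 0.993 (0.647 to 1.51) and 0.890 (0.564 to 1.38). EIF4G3 was above 1 in the wild type, at 1.35 (0.854 to 2.11), and below 1 with I304N, at 0.488 (0.264 to 0.857). With the pseudocount no member passed 2-fold in either form, although without it EIF4G3 and PABPC1 (2.09, 0.571 to 8.34) did with I304N. Of the windows 21.3% were higher and 22.4% lower in the wild type, and 5.5% were higher and 16.3% lower with I304N. In each form 5 of 7 members lay above 1, with a median ratio of 1.34 and 1.27 beside 1.03 and 0.960 over the windows. Those below 1 were EIF3A in both forms, PABPC1 in the wild type and EIF4G3 with I304N. The share of windows above 1 is not given here under any scaling. Median-of-ratios scaling multiplied each wild-type ratio by 1.51 and put the median over windows at 1.49. All 7 members then lay above 1 in the wild type, with a median of 2.00. Of them 4 (EIF4G1, EIF4G3, EEF2 and EEF1A1) were at least 2-fold higher and none lower, where 35.7% of windows were higher and 11.7% lower. In covered nucleotides 3 of 7 lay above 1 in the wild type, and EEF1A1 was at 0.414. The median there was 0.953 over members and 1.08 over windows. Wild-type and I304N values share no library. The 2 wild-type libraries, however, also serve as reference for the I304N ratios above.

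The paralogs were set beside wt iso1, which both ratios share. EEF2 had 5.15 times (3.33 to 8.05) the wt iso1 share in FXR2 and 4.75 times (2.32 to 9.14) in FXR1. EIF4G2 had 2.68 (1.71 to 4.18) in FXR2 and 4.87 (2.67 to 8.49) in FXR1. EEF1A1 had 3.75 (1.78 to 7.94) in FXR2, and its 2 FXR1 sites gave 1.69 (0.188 to 7.19). EIF4G1 had 2.13 (1.41 to 3.18) in FXR2 and 0.795 (0.211 to 2.13) in FXR1, and EIF3A 1.56 (0.955 to 2.50) and 2.22 (1.01 to 4.36). EIF4G3 and PABPC1 had intervals across 1 in FXR2, at 1.18 and 0.785. In FXR2, 4 of 7 members were at least 2-fold higher and none lower, where 14.1% of windows were higher and 23.2% lower. In FXR1, 3 members (EIF4G2, EIF3A and EEF2) were higher and PABPC1 lower, where 31.5% and 46.5% of windows were. The PABPC1 value rests on a count of 0 and is no measure of a decrease. The median ratio over members was 2.11 in FXR2 and 1.64 in FXR1, beside 0.965 and 0.674 over the windows. Most windows are sparser than most members. Occupied windows of the length of EIF3A had a median of 1 site in FXR1 and 3 in wt iso1. A single FXR1 site is 11.1 per 100000 and passes the window filter. How far this shapes the window values was not tested.

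The size of the paralog values depended on how wide sites count. In covered nucleotides the EEF2 ratio to wt iso1 was 2.81 for FXR2 and 1.87 for FXR1, and without sites of 60 nt or more it was 10.8 and 10.3. In FXR2 EIF4G2 was 1.77 by nucleotides, EIF4G1 1.31, EEF1A1 1.25 and EIF3A 0.970, and in FXR1 EIF4G2 was 3.13 and EIF3A 1.31. By nucleotides 1 member (EEF2) was thus at least 2-fold higher in FXR2 and none lower, where 21.3% of windows were higher and 17.3% lower. In FXR1 1 (EIF4G2) was higher and 3 (EIF4G1, EEF1A1 and PABPC1) lower, where 35.7% and 39.9% of windows were. With wt iso7 as reference EEF2 had 2.79 (1.84 to 4.25) in FXR2 and 2.57 (1.27 to 4.86) in FXR1, EIF4G2 2.22 (1.38 to 3.56) and 4.02 (2.16 to 7.19), and EIF4G1 1.21 (0.808 to 1.79) in FXR2. In covered nucleotides the EEF2 ratios to wt iso7 were 1.56 in FXR2 and 1.04 in FXR1. Between FXR1 and FXR2 every member's interval included 1, and the members together had a ratio of 0.967 (0.692 to 1.33). PABPC1 had no FXR1 site and 2 FXR2 sites. Among the other 6 the lowest was EIF4G1 at 0.374 (0.0972 to 1.03), from 4 and 41 sites, and the highest EIF4G2 at 1.81 (0.974 to 3.26), from 18 and 38. On the scale with the pseudocount 3 members (EIF4G1, EEF1A1 and PABPC1) were at least 2-fold lower in FXR1 than in FXR2 and none higher, where 39% of windows were lower and 32.9% higher.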

How the data were processed

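The submitters' processing notes name Bowtie 0.12.7 and hg19. The sources used here do not give the site caller, its thresholds or the reads behind a site. Each deposited line gives a position, and the deposited score is a repeat flag (0 in a repeat, 1000 elsewhere), per the file headers. Sites were assigned to genes by midpoint and strand, and coordinates are 1-based. An hg19 genome and annotation were not used here, so transcript parts, sequence motifs and a list of further translation factors, all planned, were not analysed. Transcript lengths (GENCODE release 29, longest protein-coding transcript paired with a RefSeq mRNA) were used as lengths only.

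Ratios are (sites / list length) of 1 library over another. The exact interval was run on simulated counts drawn independently, which is the setting it assumes. That run cannot show how it performs where neighbouring sites are not independent. All 7 members are named, with up to 3 merged regions each, ranked by number of libraries, total sites and order from the 5′ end, of which the text gives a selection. The members and lists were chosen with earlier results of these data known. Alternatives were repeat sites or wide sites left out, sites within 20 nt joined, nucleotides in place of sites, median-of-ratios scaling, other references, overlap rules, spans, pseudocounts and filters. Python 3.11.15, pandas 2.3.3 and scipy 1.17.1 were used.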

Additional observations from a re-analysis of the deposited data

Results flagged for a closer look

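EIF4G3 had ratios on opposite sides of 1 in the 2 isoforms and in the 2 forms. I304N over wild type was 1.07 in iso1 and 0.386 in iso7, and iso7 over iso1 was 1.35 in the wild type and 0.488 with I304N. The intervals of 1.07 and 1.35 included 1, and only the ratios that hold I304N iso7 had intervals below 1. Both pairs hold the same 4 libraries and so are 1 pattern. I304N iso7 had 17 sites and the other 3 FMR1 libraries 39 to 52, and its list share was the lowest of these 4. With median-of-ratios scaling I304N iso7 (29.7) and wt iso1 (30.7) were alike, below I304N iso1 (50.8) and wt iso7 (62.5). A low value in 1 library alone thus depended on the scaling. The difference between the pairs was not tested, since each form had 1 library.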

How the results depend on the processing

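No paired analysis was possible because each protein form had 1 library. For the members together, 57 of 65 recomputed ratios stayed within the counting interval of the reported ratio. Median-of-ratios scaling over windows gave 1.38 for I304N over wild type in iso1, 0.911 in iso7 and 2.11 for wt iso7 over wt iso1. In covered nucleotides FXR1 and FXR2 over wt iso1 were 1.32 and 1.56, and without sites of 60 nt or more FXR2 was 3.04. With wt iso7 as reference, chosen after seeing the data, they were 1.66 and 1.72. Of 389 ratios of single members 14 moved, among them EIF4G1 (1.52), EIF4G3 (1.66) and EIF3A (1.34) for I304N over wild type in iso1 and EIF4G1 (2.66) for wt iso7 over wt iso1 under median-of-ratios scaling. The cause was not tested. Counts of members under median-of-ratios scaling and in covered nucleotides, added after seeing the data, stand beside the results. All 30 overlap shares at 50% overlap of the shorter site, 12 ratios near span ends without repeat sites and 41 median positions with sites within 20 nt joined stayed within their limits.

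The share of windows past 2-fold moved by over 1.5 times in 10 of 14 cases with a pseudocount of 5 and in 10 of 14 without the filter. With a pseudocount of 5, windows at least 2-fold higher were 17.4% (I304N over wild type, iso1), 11.3% (the same, iso7), 10.1% (iso7 over iso1, wild type), 1.52% (the same, I304N) and 7.1% (FXR2 over wt iso1), and those lower were 11.1%, 10.4%, 12.5%, 5.44% and 13.2%. Without the filter the shares that moved were 18.5% higher and 8.35% lower (I304N over wild type, iso1), 35.1% lower (iso7), 35.1% higher and 9.75% lower (iso7 over iso1, wild type), 8.93% higher and 23.7% lower (FXR1 over wt iso1), 12.8% lower (FXR2 over wt iso1), and 8.33% higher and 23% lower (FXR1 over FXR2). The FXR1 list, at 9017 sites, limits what can be seen of genes with few sites: PABPC1 up to 33.3 per 100000 could be missed.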

Other observations

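The first 2 kb of EIF4G3 held more I304N than wild-type sites, a stretch picked after seeing the data. There I304N iso1 had 7 sites and wt iso1 none. The lower limit of the exact interval of their ratio, each per site of its list, was 1.33. Counting 3 sites in the library with none, the ratio was 2.15. I304N iso7 had 5 there and wt iso7 1, a ratio of 4.43 (0.495 to 209). FXR1 and FXR2 had none. Of these regions 3, on chromosome 1 from 21503230 to 21503255, from 21502622 to 21502647 and from 21502326 to 21502347, had sites in both I304N libraries and in no other. In EIF4G1 the first 2 kb held 2 sites in wt iso1, 5 in wt iso7, 5 in I304N iso1 and 10 in I304N iso7, of which 2 in I304N iso7 were marked as repeat. In PABPC1 it held 2, 2, 2 and 4 sites in that order. EIF3A had 3 in each of the 4 libraries and EIF4G2 had 2 in each. EEF2 ratios lay below 1 with wide intervals, from 4 sites in wt iso1, 7 in wt iso7, 3 in I304N iso1 and 4 in I304N iso7: 0.691 (0.101 to 4.09) in iso1 and 0.506 (0.109 to 1.99) in iso7. EEF1A1 had 1, 1, 0 and 1. Over all members the share of sites in the first 2 kb was 4.90% (2.70 to 8.08) in wt iso1, 8.17% (5.13 to 12.2) in wt iso7, 8% (5.08 to 11.9) in I304N iso1, 13.5% (9.22 to 18.8) in I304N iso7, 3.61% (1.46 to 7.29) in FXR2 and 0 of 49 sites in FXR1. Between I304N and the wild type of the same isoform these intervals overlapped.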
